A study of Homo sapiens with 14 samples.

Results

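The genes described here are the nuclear-encoded subunits of the mitochondrial respiratory chain, that is complexes I, III and IV, and of ATP synthase, called complex V. They were taken by symbol from a table of transcription start-site windows: rows with an NM_ accession (a curated RefSeq mRNA) whose symbol began with NDUF and then A, B, C, S or V and a digit, with UQCR, with COX4 to COX8, or with ATP5 and then F, M or P. This gave 81 of 28159 genes, of which 37 belong to complex I, 9 to complex III, 17 to complex IV and 18 to complex V. NDUFC2 shares its exact window with the readthrough gene NDUFC2-KCTD14, and ATP5MF with ATP5MF-PTCD1, so the 81 genes do not give 81 separate measurements. NDUFA4 and NDUFA4L2 are counted in complex I by their symbols, although NDUFA4 is now placed in complex IV. UQCRHL and ATP5MGL are close copies of UQCRH and ATP5MG, and the sources used here do not give how reads matching such copies were assigned.

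The study asked whether a peptide that blocks the contact between p53 and the coactivator complex Mediator changes where RNA polymerase II stands when p53 is activated. It used wild-type HCT116, a human colorectal carcinoma line, and chromatin immunoprecipitation sequencing (ChIP-seq) with an antibody against RNA polymerase II carrying phosphate on Ser5 of the C-terminal repeats. All cells were electroporated, with the bivalent stapled peptide at 10 µM or with water in its place, and peptide-treated cells received a further 200 nM peptide in the medium. Incubation lasted 3 h, either with solvent (0.1% DMSO) or with Nutlin3a at 10 µM, a compound that frees p53 from its inhibitor MDM2. The groups without peptide had 2 ChIP libraries each. With peptide there was 1 ChIP library for each, both numbered replicate 2, and all 4 conditions together had 8 input libraries of sheared chromatin. Nothing in the sources used here says that replicates were separate cultures, so p-values may reflect technical spread alone.

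The respiratory chain passes electrons from NADH and succinate to oxygen through complexes I to IV and pumps protons across the inner mitochondrial membrane, and ATP synthase uses the returning protons to make ATP. Its subunits are split between the mitochondrial genome and nuclear genes scattered over the chromosomes, so complexes of fixed composition draw on many separately placed genes. Their promoters are known for sites of the factors NRF1, GABP (an ETS factor also called NRF2), YY1 and SP1, and most of them are active in every tissue, with a few isoforms that are restricted to muscle, testis or low oxygen. Polymerase phosphorylated at Ser5 is the form found just after initiation and at pause sites near promoters.

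Promoter sequences show what these start sites have in common. RefSeq promoters (assembly GRCh38.p14, from 250 bases before the start to 50 after it) were found for 64 of the 81 genes, and for 58 of them the RefSeq start lay inside the counted window. It lay outside for NDUFA5, NDUFB11, NDUFC1, COX7A2, ATP5F1A and ATP5PF, so the levels given for these genes are not of that start. Genes without a RefSeq promoter were not checked. Each stretch below runs from 120 bases before the start to 30 after it, 5′ to 3′ on the gene's strand, with exact matches to the searched motifs in capitals. COX4I1 (chr16:85799575-85799724, plus strand) and ATP5MD (chr10:103396446-103396595, minus strand) are shown as windows with among the highest polymerase signal. NDUFS1 (chr2:206159415-206159564, minus strand) and NDUFS6 (chr5:1801287-1801436, plus strand) show the YY1 letters just after a complex I start. COX6A1 (chr12:120437993-120438142, plus strand) and COX6A2 (chr16:31428331-31428480, minus strand) are the common and the muscle form of 1 subunit. ATP5PO (chr21:33915775-33915924, minus strand) had the smallest p in the comparison of Nutlin3a with DMSO.
COX4I1: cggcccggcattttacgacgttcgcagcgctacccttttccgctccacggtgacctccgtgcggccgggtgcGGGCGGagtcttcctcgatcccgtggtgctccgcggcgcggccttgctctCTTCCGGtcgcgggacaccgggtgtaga
ATP5MD: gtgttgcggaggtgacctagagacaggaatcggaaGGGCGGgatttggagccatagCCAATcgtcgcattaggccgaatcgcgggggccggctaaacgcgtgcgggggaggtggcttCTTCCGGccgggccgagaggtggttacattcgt
NDUFS1: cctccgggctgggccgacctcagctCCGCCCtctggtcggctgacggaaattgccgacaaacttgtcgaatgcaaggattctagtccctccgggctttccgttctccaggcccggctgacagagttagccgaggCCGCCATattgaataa
NDUFS6: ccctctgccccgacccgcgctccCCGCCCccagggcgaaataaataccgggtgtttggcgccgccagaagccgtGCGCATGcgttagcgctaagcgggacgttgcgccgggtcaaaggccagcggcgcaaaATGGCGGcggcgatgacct
COX6A1: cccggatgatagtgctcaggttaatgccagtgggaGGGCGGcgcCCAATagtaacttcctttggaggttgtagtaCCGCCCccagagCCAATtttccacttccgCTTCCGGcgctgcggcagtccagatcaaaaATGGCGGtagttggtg
COX6A2: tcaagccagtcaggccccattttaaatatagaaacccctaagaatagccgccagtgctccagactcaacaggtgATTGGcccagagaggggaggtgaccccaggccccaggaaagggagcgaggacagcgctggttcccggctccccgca
ATP5PO: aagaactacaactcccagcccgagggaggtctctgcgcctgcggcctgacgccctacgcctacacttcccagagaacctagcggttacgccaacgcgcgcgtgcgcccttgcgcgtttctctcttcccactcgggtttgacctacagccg

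The motifs were searched on both strands of the 58 promoters as fixed letters, and the same search was run on all 27305 RefSeq promoters of that length and on the 15842 of them that belong to protein-coding genes, as all members do. The YY1 letters ATGGCGG were in 14 of 58 respiratory chain promoters (24.1%) against 5.72% of all promoters and 7.63% of protein-coding ones. Complex I held 11 of these 14, among 28 promoters (39.3%), including NDUFS1, NDUFS3, NDUFV2, NDUFS4 and NDUFS8. In 13 of the 14 a match lay in the bases after the start, as in NDUFS6 and COX6A1 above, where it began 12 and 15 bases in. Among all promoters with the letters, 792 of 1562 (50.7%) had a match after the start, and among protein-coding ones 723 of 1209 (59.8%). The letters begin with ATG, as a coding sequence does, and the search did not set coding bases apart from others.

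The ETS letters CCGGAAG, the core of a GABP site, were in 16 of 58 (27.6%) against 10.7% of all and 14.2% of protein-coding promoters, and 2 of these 16 had a match after the start. The promoters of COX4I1, COX6A1, COX8A, UQCRH and ATP5MD were among them. GCGCATG, an arm of the NRF1 palindrome, was in 11 (19.0%) against 4.67% of all and 5.87% of protein-coding promoters, including NDUFS6, COX5B, COX6A1 and ATP5MC2. The SP1 letters GGGCGG were in 62.1%, against 44.6% of all promoters but 58.5% of protein-coding ones, so their share was near that of coding genes at large. The NF-Y letters CCAAT were in 34.5%, against 35.7% and 36.4%. TATAAA was in 4 promoters (6.90%, against 12.0% and 9.63%), those of NDUFA9, UQCRC2, COX7B and COX6A2, and the E-box CACGTG was in 10.3%, against 7.43% and 8.88%. Matches to different motifs can share bases, since the ends of some of these letters run into each other, and did so in 1 of the 58 promoters (ETS with SP1) and in 1.20% of all promoters. A promoter can also hold several apart, as COX6A1 does. A match is a run of letters and was not tied to a bound factor in these data.

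A start on the opposite strand is called diverging here if it lay within 1000 bases upstream or 250 bases downstream of the gene's start. Such a start was found for 18 of the 58 promoters (31.0%) against 18.0% of all and 19.8% of protein-coding promoters. It lay 151 bases from COX4I1 (EMC8), 151 from ATP5MD (PDCD11), 165 from NDUFS1 (EEF1B2) and 82 from UQCRH (LRRC41). Each gene had 1 window, and a window that overlaps a neighbour's counts the same reads for both genes. That held for 31 of the 81 genes (38.3%) against 22.0% of all windows, and for 18 in complex I, 3 in complex III, 1 in complex IV and 9 in complex V. For these genes the signal cannot be told apart from the neighbour's. Windows were 1000 bp long and mostly began 300 bp to the left of the start in genome order whatever the strand, for 30 of 31 plus-strand and 25 of 27 minus-strand members. Plus-strand windows thus held 300 bp upstream and 700 bp downstream of the start, and minus-strand windows the reverse. The median level was 54.1 CPM over the 30 plus-strand members and 56.8 CPM over the 25 minus-strand members.

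**Figure D1:**
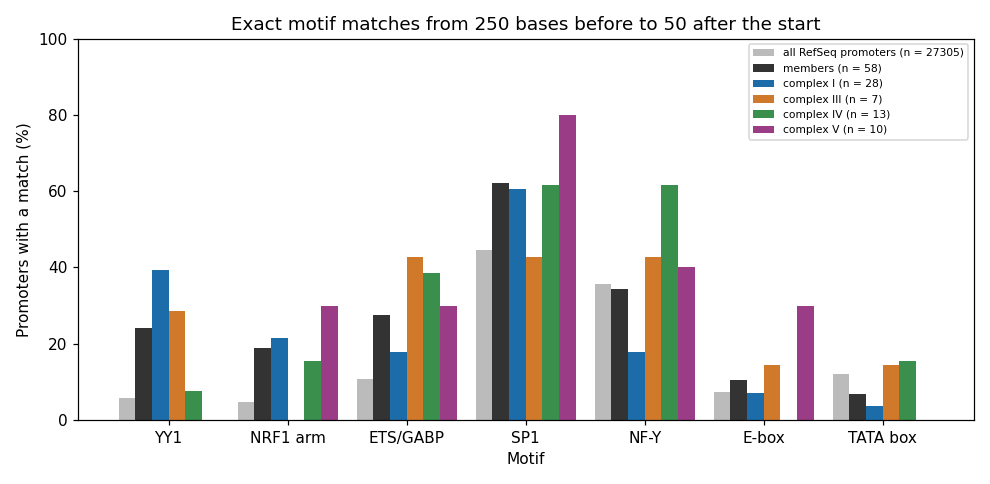
Share of promoters with an exact match to each motif (y axis, percent), from 250 bases before the start to 50 after it, for all 27305 RefSeq promoters (grey), the 58 respiratory chain promoters (black) and each complex (colours). YY1 letters were in 39.3% of the 28 complex I promoters and ETS letters in 27.6% of all 58, against 5.72% and 10.7% of all promoters, or 7.63% and 14.2% of protein-coding ones (not drawn).

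Total counts in windows were 1290223 to 2240951 in the ChIP libraries and 161719 to 359276 in the inputs, and the 81 genes held 6043 to 11098 ChIP counts, or 0.465% to 0.508% of a library. Of 6 colon epithelial markers, 5 lay above the median window by ChIP level, with KRT18 at 278 CPM and VIL1, the exception, at 7.80 CPM. Over the DMSO input, 4 of the 6 had a log2 fold above 0 and 2 below. By edgeR adjusted p under 0.05, 3 were higher (12.1% of all windows) and 0 lower (4.71% of all windows). The label of the line was thus met in part. The 11 markers of blood, mesenchyme and silent tissues summed to 38.1 and 55.7 CPM in the DMSO libraries, to 93.3 and 68.4 CPM in the Nutlin3a libraries, and to 75.0 and 65.1 CPM in the DMSO and Nutlin3a libraries with peptide. Their defining genes were low but not all at 0: ALB had 0 counts in 4 of the 6 ChIP libraries, PTPRC in 1 and DCN in 1. The top 10% of windows by signal held 41.4% and 40.7% of counts with DMSO and 38.5% and 39.5% with Nutlin3a. As a check of the treatment, CDKN1A, the p53 target that encodes p21, stood at 107 and 125 CPM with DMSO, 249 and 357 CPM with Nutlin3a, and 115 and 461 CPM in the DMSO and Nutlin3a libraries with peptide. MDM2, also a p53 target, stood at 103 and 100 CPM with DMSO and 170 and 193 CPM with Nutlin3a. Without peptide the log2 folds of CDKN1A and MDM2 were 1.39 and 0.84. In edgeR's quasi-likelihood test both had an unadjusted p under 0.05, but neither passed after Benjamini-Hochberg adjustment.

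Most respiratory chain windows had a higher ChIP signal than the median window, and their median input was higher too. Levels are CPM (counts scaled to a library of 1000000) in a window of 1000 bp, with library sizes adjusted by the trimmed mean of M-values (TMM). All windows have the same length, but their input differs, so the order of windows by CPM is an order of ChIP signal and not of polymerase over input. All 81 genes passed the filter on low counts, and the median of their mean ChIP level was 54.4 CPM against 20.2 CPM over the 25901 windows tested. By rank, 70 of the 81 lay above the median window and 14 above the 90th percentile, with a median percentile of 75.2. Over 50 genes whose window overlaps no other, the median percentile was 73.6 and 4 lay above the 90th. In all, 7 genes stood above 100 CPM, 41 between 50 and 100, 22 between 20 and 50, and 11 below 20. Input had a median of 43.6 CPM over the members, from 4.35 to 83.2 CPM, and 28.9 CPM over all windows.

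**Figure D2:**
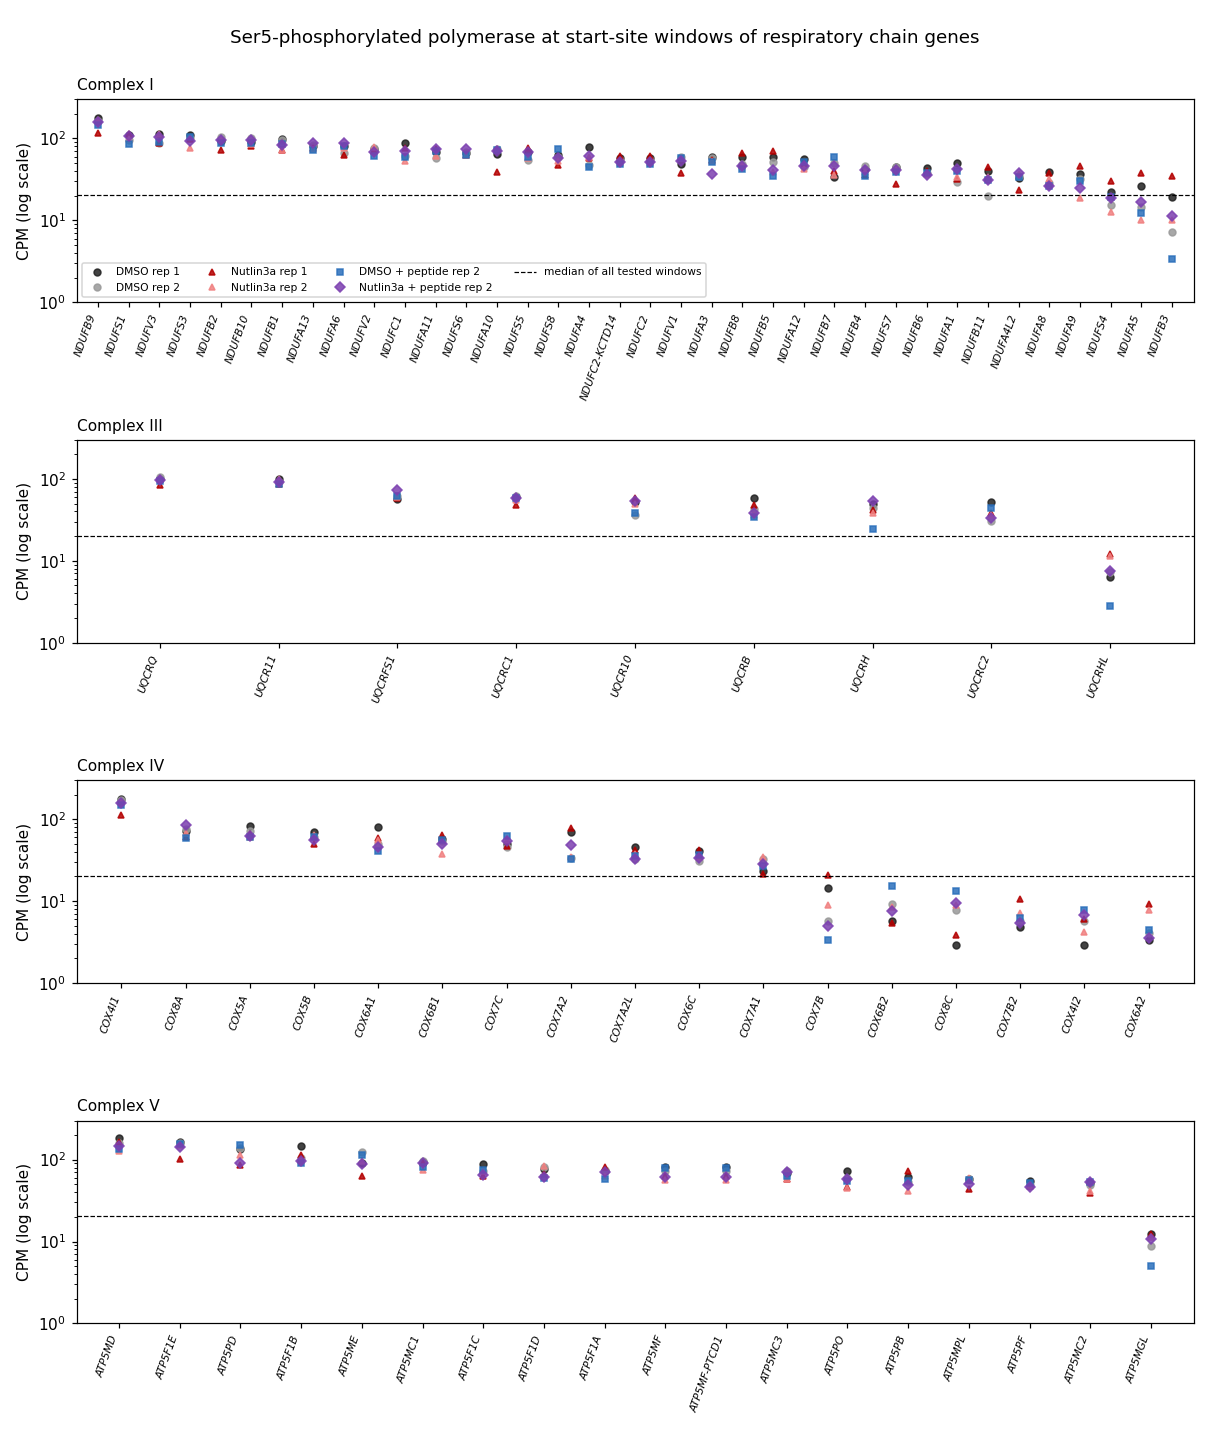
Level of Ser5-phosphorylated polymerase (y axis, CPM on a log scale) at the start-site windows of the genes shown, in panels for complexes I, III, IV and V, ordered by mean level, with 1 point per ChIP library and the dashed line at the median of all tested windows (20.2 CPM). COX4I1, NDUFB9 and ATP5MD stand highest, and 6 complex IV genes and the copies UQCRHL and ATP5MGL lie below 11 CPM.

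In complex I the median level was 54.3 CPM. NDUFB9, an accessory subunit of the membrane arm, was the highest at 176 and 163 CPM with DMSO, 116 and 168 CPM with Nutlin3a, and 146 and 158 CPM with DMSO and Nutlin3a in the presence of peptide, although its window overlaps that of TATDN1. NDUFS1, the largest iron-sulfur subunit of the NADH-oxidising arm, followed at 110 and 96.9 CPM with DMSO, 113 and 97.2 CPM with Nutlin3a, and 85.7 and 107 CPM with peptide. The NDUFS1 groups overlapped, and its window overlaps that of EEF1B2. NDUFV1, which binds FMN and takes electrons from NADH, stood at a mean of 52.4 CPM over the 6 libraries. NDUFS6, a zinc-binding subunit whose promoter is printed above, stayed between 63.0 and 75.4 CPM in all 6 libraries. At the low end were NDUFS4 (19.8 CPM), NDUFA5 (19.6 CPM) and NDUFB3 (14.3 CPM). NDUFB3 also had a low input, 9.35 CPM against a complex I median of 44.3 CPM.

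Complex III had a median of 48.1 CPM. Its highest windows were those of the small subunits UQCRQ (96.4 CPM) and UQCR11 (92.6 CPM), and the UQCRQ window overlaps that of GDF9. UQCRFS1, the Rieske iron-sulfur protein, was steady at 56.9 and 61.3 CPM with DMSO, 58.9 and 60.0 CPM with Nutlin3a, and 61.0 and 74.0 CPM with peptide. UQCRC1, a core subunit, had a mean of 56.8 CPM. UQCRH, the acidic hinge protein that helps cytochrome c to dock, stood at 41.7 CPM, and its copy UQCRHL at 7.92 CPM, on counts of 5 to 19 reads per library.

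Complex IV spanned the widest range, with a median of 37.6 CPM. COX4I1, its largest nuclear-encoded subunit, was the highest of all 81 genes at a mean of 156 CPM, or percentile 97.6 of the tested windows. It measured 177 and 174 CPM with DMSO, 112 and 164 CPM with Nutlin3a, and 151 and 157 CPM in the DMSO and Nutlin3a libraries with peptide. Both DMSO libraries were above all others, and the window overlaps that of EMC8. COX5B, the zinc-binding subunit, had a mean of 60.2 CPM, COX7A2 49.7 CPM and COX6C 36.5 CPM. At the other end stood 6 genes below 10 CPM, of which 5 are tissue-restricted isoforms and the other is COX7B, a common subunit on the X chromosome. COX7B had a mean of 9.67 CPM over an input of 4.35 CPM, the lowest input of the genes named here, with 10 input counts in all 8 inputs together.

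Common isoforms stood above restricted ones by amounts that ranged widely. COX4I1 had 28.0 times the mean level of COX4I2, the form of lung and low oxygen, with ratios of 18.4 to 61.2 in single libraries. COX6A1 had 10.2 times the level of COX6A2, the form of heart and skeletal muscle (6.42 to 23.9). For the testis forms the ratios were 9.09 for COX8A over COX8C and 6.16 for COX6B1 over COX6B2. COX7A2 over the muscle form COX7A1 was 1.78, COX7B over the testis form COX7B2 1.45, and NDUFA4 over NDUFA4L2, a gene induced by low oxygen, 1.74. In single libraries COX7A1 reached above COX7A2 (lowest ratio 0.983) and COX7B2 above COX7B (0.545), so these pairs did not separate. Input differed between the forms as well, with ratios of 5.63 for COX4I1 over COX4I2, 3.32 for COX6A1 over COX6A2, 3.11 for COX8A over COX8C and 1.45 for COX6B1 over COX6B2. It was nearly equal for COX7A2 over COX7A1 (1.13) and NDUFA4 over NDUFA4L2 (1.01), and lower in the common form for COX7B over COX7B2 (0.605). COX6A2 (5.42 CPM), COX4I2 (5.57 CPM) and COX7B2 (6.65 CPM) were the lowest of all 81 genes, on 6 to 15 reads in a library, and lay near the level of silent markers such as MYH7 (5.61 CPM).

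Complex V had the highest median, 69.3 CPM. ATP5MD, a small subunit of the membrane part also called DAPIT, measured 183 and 158 CPM with DMSO, 163 and 127 CPM with Nutlin3a, and 134 and 149 CPM with peptide. The groups without peptide overlapped, and the window overlaps that of PDCD11. ATP5F1E, the epsilon subunit of the rotor stalk, had a mean of 146 CPM with no overlapping window. Of the catalytic head, the beta subunit ATP5F1B had a mean of 109 CPM and the alpha subunit ATP5F1A 69.7 CPM. The 3 genes ATP5MC1, ATP5MC2 and ATP5MC3 encode the same mature rotor-ring protein, and they stood at 88.0, 48.2 and 65.5 CPM. ATP5PO, the stalk subunit that confers oligomycin sensitivity, had a mean of 56.1 CPM and ATP5PF, another stalk subunit whose window overlaps that of GABPA, 49.7 CPM. ATP5MGL, the copy, had 10.1 CPM.

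Levels differed by motif only as a description, since members are not replicates. The 16 genes with ETS letters had a median of 85.9 CPM, from 38.0 to 156 CPM, and the 42 without had 52.4 CPM, from 5.42 to 146 CPM. The 18 genes with a diverging start had a median of 74.1 CPM against 52.7 CPM for the other 40. These groupings share genes, COX4I1, ATP5MD, NDUFS1 and UQCRH among them, so they are not separate. The restricted isoforms COX6A2, COX6B2, COX7B2 and COX8C have no ETS letters. Medians with and without were 63.9 and 44.9 CPM for the SP1 letters and 77.9 and 54.3 CPM for the E-box. They were 20.5 and 56.4 CPM for TATAAA and 54.1 and 55.9 CPM for CCAAT. For the YY1 letters the medians were 62.8 CPM with (14 genes) and 53.6 CPM without (44 genes), and for the NRF1 letters 55.3 and 55.7 CPM.

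Polymerase signal was next set against the DMSO input, in a fit of all 14 libraries scaled together, to ask which windows held more than sheared chromatin. With edgeR's quasi-likelihood test and Benjamini-Hochberg adjustment over 21504 windows, 13 of 79 tested members were higher than input (12.1% of all windows) and 2 were lower (4.71% of all windows). COX7B and COX7B2 did not pass the filter in that fit. The median log2 fold was 0.67 over the members and 0.06 over all windows. Over the 12943 tested windows in the upper range of ChIP level, a stratum above the median chosen after the data were seen, it was 0.65, and there 20.1% were higher and 1.82% lower, beside 16.5% and 2.53% of the members. The ratio is relative to the average window, because each library is scaled to its own counts.

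Of the 13 members above input, 7 belonged to complex V, 4 to complex I, and 1 each to complexes III and IV. ATP5MC3 measured 81.1 and 83.2 CPM in the DMSO ChIP and 0 and 12.6 CPM in the DMSO input, a log2 fold of 3.74 ± 0.93 (SE, n = 2 per group, edgeR adjusted p 0.00649). Its groups lay far apart, but it rests on 40 input counts in all 8 inputs together. ATP5F1B, the beta subunit, measured 172 and 121 CPM against 13.2 and 29.4 CPM, a log2 fold of 2.73 ± 0.51 (edgeR adjusted p 0.000479). NDUFB9 was at 205 and 187 CPM against 29.7 and 29.4 CPM (2.63 ± 0.46), and ATP5MD at 213 and 181 CPM against 23.1 and 46.2 CPM (2.45 ± 0.45). The other 9 were UQCRH (2.72), NDUFS3 (2.07), ATP5PF (1.91), ATP5ME (1.88), NDUFB2 (1.63), ATP5PD (1.46), ATP5F1E (1.39), COX4I1 (1.28) and NDUFV3 (1.28).

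The 2 members below input were COX6B2, the testis form of subunit VIb (6.76 and 10.6 CPM against 33.1 and 37.8 CPM, log2 fold −2.10 ± 0.74, edgeR adjusted p 0.0482), and ATP5MGL (14.6 and 10.0 CPM against 89.2 and 16.8 CPM, −2.23 ± 0.66, edgeR adjusted p 0.0211). The ATP5MGL groups lay apart by little, since 1 input stood near its ChIP libraries. By complex the median log2 fold was 1.03 in complex V, 0.71 in complex I, 0.61 in complex III and 0.41 in complex IV. Of the 13 members above input, 10 had a window that overlaps a neighbour's. Among the 48 tested members with no overlap 3 were higher, namely NDUFV3, ATP5F1E and ATP5MC3. Beside this stand 12.1% of all windows and 20.1% of the upper stratum, both of which include overlapping windows. The count above input also fell to 7 when libraries were scaled by total counts. Over all 21504 windows it fell as well, from 2606 to 1451. Without DMSO replicate 1, DMSO replicate 2 or DMSO input replicate 1 the members' median log2 fold was 0.47, 0.66 and 0.73. That of all windows was −0.0024, 0.023 and 0.026. Without DMSO input replicate 2 the medians were 0.91 over the members and 0.26 over all windows. Inputs were shallow, and in the fit the standard error of a member's log2 fold had a median of 0.50.

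**Figure D3:**
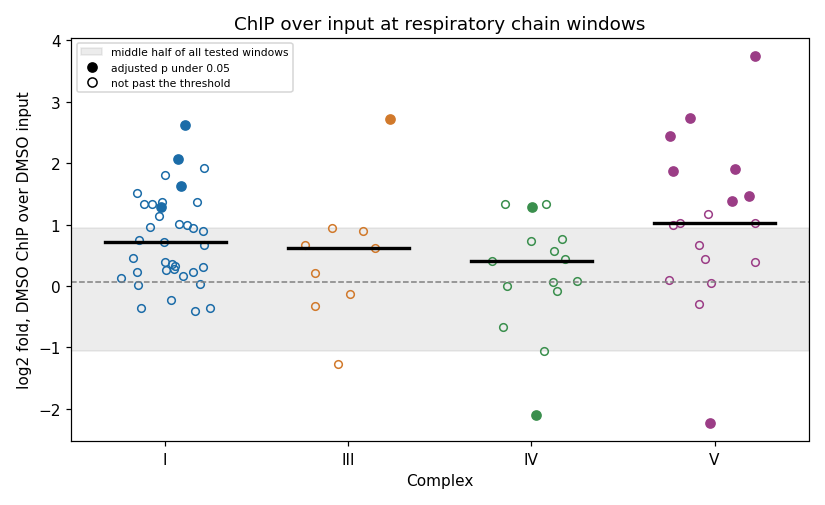
Log2 fold of the DMSO ChIP over the DMSO input (y axis) at the 79 tested windows, by complex (x axis), with filled points for an adjusted p under 0.05, a bar at each complex's median, the dashed line at the median of all windows (0.06) and the grey band over the middle 50% of all windows. Complex V holds 7 of the 13 points above input, and the 2 filled points below it are COX6B2 and ATP5MGL.

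Nutlin3a against DMSO without peptide asked whether p53 activation moves polymerase at these start sites within 3 h. No respiratory chain gene passed the test, and neither did the p53 targets CDKN1A and MDM2. With edgeR's quasi-likelihood test, 0 of 81 were higher (0.00772% of all 25901 windows) and 0 were lower (0% of all windows), and DESeq2 also called 0. At an unadjusted p under 0.05, 0 were higher and 1 was lower, ATP5PO, against 1.27% and 1.05% of all windows. The standard error of a member's log2 fold had a median of 0.25, and the 95% interval reached 0.53 to either side at the median. On simulated counts this test recovered 0% of changes of 1.5-fold and 29.9% of changes of 2-fold, so small changes would be missed.

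Differences were small and mostly on the lower side under TMM scaling. The median log2 fold was −0.13 over the 81 genes, with 57 below 0, and 0.04 over all windows, but with the authors' own scaling constants the medians were 0.38 (1 gene below 0) and 0.53, so the sign follows the scaling. The distance between members and all windows was −0.17 with TMM and −0.15 with the authors' constants. Over the 12950 windows of the upper stratum by level the TMM median was −0.13, the same as that of the members. Within replicate 1 the members' median was −0.18 and within replicate 2 it was −0.07, each from 1 library a group. In 23 genes both Nutlin3a libraries lay below both DMSO libraries (15.7% of all windows), in 3 both lay above (16.1% of all windows), and in 55 the groups overlapped. In the upper stratum the shares were 27.2% below and 6.49% above, so the members' 28.4% below was near that of windows of like level. The summed level of the 11 silent and other-cell markers, given above, was higher in both Nutlin3a libraries than in both DMSO libraries, and the share of counts in the top 10% of windows was lower. Their part in the members' values was not tested.

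By complex the TMM medians were −0.25 in complex V, −0.13 in complex III, −0.10 in complex I and 0.02 in complex IV, and with the authors' constants all 4 were above 0, at 0.25, 0.34, 0.40 and 0.53. In complex V, 17 of 18 genes were below 0 under TMM scaling, ATP5MGL being the exception, and in 9 of them both Nutlin3a libraries lay below both DMSO libraries. Complex I had 9 such genes of 37, complex III 2 of 9 and complex IV 3 of 17. The groups lay apart in this way in 15.7% of all windows and 27.2% of the upper stratum. Below 0 were 11899 of all 25901 windows and 9064 of the 12950 in that stratum. Complex V had a median percentile of 83.3 by level, and in it ATP5MF and ATP5MF-PTCD1 share 1 window. Whether the complexes differ was not tested, since genes of a complex are not replicates. With only windows of a mean count of at least 50 kept in the fit and the scaling, the median of the 70 members left was 0.0015 and that of all windows 0.0046.

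ATP5PO, whose promoter is printed above, measured 72.8 and 59.3 CPM with DMSO and 46.6 and 45.0 CPM with Nutlin3a. Both Nutlin3a libraries were below both DMSO libraries, with a log2 fold of −0.53 ± 0.24 (SE, n = 2 per group, edgeR unadjusted p 0.0426, adjusted p 0.982). NDUFB1, an accessory subunit of complex I, measured 98.8 and 94.8 CPM with DMSO and 72.6 and 72.0 CPM with Nutlin3a. Its log2 fold was −0.42 ± 0.21 without passing the test, and its window overlaps that of CPSF2. ATP5PD, a subunit of the peripheral stalk, measured 136 and 138 CPM with DMSO and 87.2 and 115 CPM with Nutlin3a (−0.43 ± 0.22). Its groups did not overlap either, and its window overlaps that of KCTD2.

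The highest positive values came from genes with few reads. COX6A2 measured 3.38 and 4.12 CPM with DMSO and 9.17 and 7.80 CPM with Nutlin3a, which is 7 and 8 against 12 and 13 reads. Its log2 fold was 1.16 ± 0.81, with a 95% interval from −0.56 to 2.88. UQCRHL measured 6.27 and 7.22 CPM with DMSO and 12.2 and 11.4 CPM with Nutlin3a (0.80 ± 0.60). COX7B2 was the other gene with both Nutlin3a libraries on the higher side, at 10.7 and 7.20 CPM against 4.82 and 5.67 CPM. These 3 were at the level of the silent markers, which were also higher with Nutlin3a, and the part of that background in them was not tested. NDUFB3 was at 19.3 and 7.22 CPM with DMSO and 34.4 and 10.2 CPM with Nutlin3a (0.72 ± 0.58), and its 2 replicates differed more than its groups.

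Well-known common subunits ran from 0.09 down to −0.34, and none passed. NDUFS1 was at 0.02 ± 0.22, with a 95% interval from −0.44 to 0.48. UQCRFS1 was at 0.01 ± 0.23, ATP5F1A at −0.03 ± 0.23 and COX6C at 0.09 ± 0.29. NDUFA4 (−0.09 ± 0.26), NDUFV1 (−0.15 ± 0.26), COX5B (−0.18 ± 0.24) and ATP5MC1 (−0.19 ± 0.22) lay on the lower side within their errors. UQCRC1 (−0.24 ± 0.24), ATP5F1B (−0.25 ± 0.23), ATP5MC3 (−0.28 ± 0.22) and COX4I1 (−0.34 ± 0.23) had values below 0 by about their error or more. For ATP5MC3 the groups were tight, at 69.4 and 72.7 CPM with DMSO and 58.1 and 58.8 CPM with Nutlin3a. The libraries come from bulk chromatin, so fewer cells with polymerase at a start site and less polymerase per cell cannot be told apart.

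**Figure D4:**
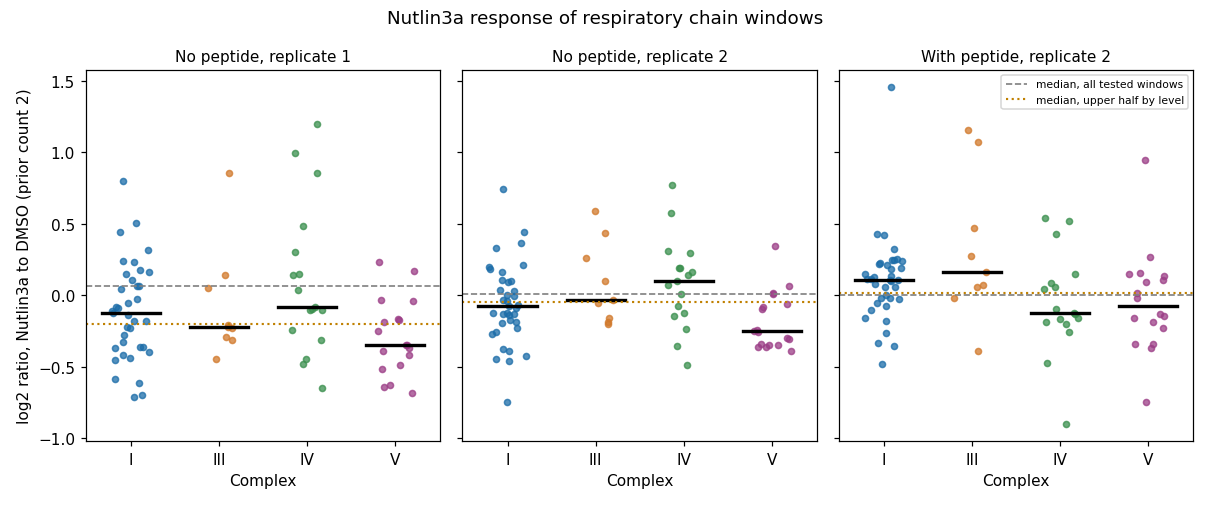
Log2 ratio of Nutlin3a to DMSO (y axis, TMM-scaled CPM with a prior count of 2) at the 81 windows by complex (x axis), in panels for replicate 1 and replicate 2 without peptide and for replicate 2 with peptide, each from 1 library a group. Bars are complex medians, the dashed line is the median of all windows and the dotted line that of windows above the median level. Without peptide the complex V bars are at −0.35 and −0.25 under TMM scaling, and with the authors' constants the fitted complex V median is 0.25.

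With peptide there was 1 library a group, so Nutlin3a against DMSO was read as values only. The median log2 ratio of the 81 genes was 0.06 under TMM scaling, with 46 above 0, and 0.46 with the authors' constants, and the median of all windows was 0.00. The medians were 0.11 in complex I, 0.16 in complex III, −0.13 in complex IV and −0.08 in complex V. Past 1.5-fold, 4 genes were higher (10% of all windows) and 2 were lower (11.4% of all windows). The 4 were NDUFB3 (1.46), UQCRHL (1.16), UQCRH (1.07) and ATP5MGL (0.94), and the 2 were COX6B2 (−0.90) and ATP5PD (−0.75). UQCRH and ATP5PD had the highest mean levels of these genes (41.7 and 120 CPM), with 44 and 119 reads at UQCRH. Each ratio still rests on 1 library a group, and their windows overlap those of LRRC41 and KCTD2.

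The response to Nutlin3a with peptide was then compared with the response without it, to see whether the peptide alters what Nutlin3a does at these genes. With edgeR's quasi-likelihood test, 0 of 81 were higher and 0 lower (0% of all windows in each direction), and DESeq2 called 0. At an unadjusted p under 0.05, 1 was higher and 0 lower, against 0.413% and 0.641% of all windows. The lone peptide libraries were assumed to vary like the pairs. The median difference was 0.18 on the log2 scale, with 58 of 81 genes above 0, against −0.01 over all windows and 0.14 over the upper stratum by level. It was 0.22 in complexes I and III, 0.14 in complex V and −0.02 in complex IV. With the authors' constants the members' median was 0.07 and without DMSO replicate 1 it was 0.06.

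UQCRH had the smallest p. It measured 48.7 and 43.8 CPM with DMSO and 41.3 and 38.4 CPM with Nutlin3a, then 24.6 CPM with DMSO and peptide and 53.1 CPM with Nutlin3a and peptide. The DMSO library with peptide was the lowest of the 6 and the Nutlin3a library with peptide the highest. The difference was 1.32 ± 0.47 (SE, n = 2 and n = 1 per group, edgeR unadjusted p 0.0120, adjusted p 1), and the window overlaps that of LRRC41. COX8A, the common form of subunit VIII, measured 72.8 and 75.3 CPM with DMSO and 61.2 and 67.8 CPM with Nutlin3a, then 58.8 and 84.7 CPM in the DMSO and Nutlin3a libraries with peptide (0.72 ± 0.37). ATP5PO measured 54.3 and 58.4 CPM with peptide, a difference of 0.63 ± 0.41. On the lower side were COX6A2 (−1.48 ± 1.44), COX6B2 (−0.88 ± 1.01) and NDUFA3, an accessory subunit of complex I (−0.36 ± 0.42).

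**Figure D5:**
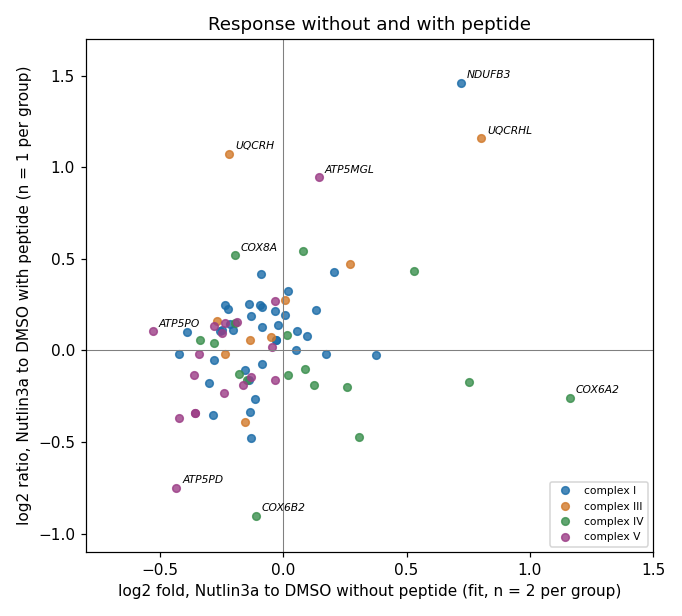
Log2 fold of Nutlin3a to DMSO without peptide (x axis, from the fit, n = 2 per group) against the log2 ratio with peptide (y axis, n = 1 per group) for the 81 genes, coloured by complex and TMM-scaled. UQCRH lies at −0.22 and 1.07 and ATP5PO at −0.53 and 0.10, and the labelled points farthest from 0 other than UQCRH and ATP5PD are genes with few reads.

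The peptide by itself gave no call. With DMSO, 0 of 81 genes were higher and 0 lower by edgeR's quasi-likelihood test (0% of all windows in each direction), and at an unadjusted p under 0.05, 0 were higher and 2 lower (0.687% and 0.83% of all windows). These 2 were UQCRH (−0.91 ± 0.35) and NDUFB3 (−1.96 ± 0.88). NDUFB3 was at 3.36 CPM with peptide, in replicate 2, against 19.3 and 7.22 CPM in replicates 1 and 2 without. COX6A1 was at −0.68 ± 0.33, with 40.9 CPM against 80.5 and 50.5 CPM. On the higher side were COX8C (1.34 ± 0.78) and COX6B2 (1.00 ± 0.68), both with few reads, and NDUFB7 (0.50 ± 0.33), an accessory subunit of complex I at 58.8 CPM against 33.8 and 49.5 CPM. The median was −0.13 against −0.02 over all windows and −0.07 over the upper stratum, and −0.37 with the authors' constants. The fit set the peptide library, numbered replicate 2, against replicates 1 and 2 without peptide, so peptide is mixed with replicate number. Within replicate 2 the members' median log2 ratio was −0.065, against 0.0035 over all windows and −0.023 over the upper stratum.

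With Nutlin3a, 0 of 81 genes were higher and 0 lower by edgeR's quasi-likelihood test (0% of all windows in each direction), and 0 had an unadjusted p under 0.05 (0.564% of all windows were higher and 1.88% lower at that p). DESeq2 called 0 under either treatment. The median was 0.03 against −0.02 over all windows, and −0.31 with the authors' constants, so its sign follows the scaling. Here too the fit set replicate 2 with peptide against replicates 1 and 2 without. Within replicate 2 the members' median log2 ratio was 0.043, against −0.010 over all windows and 0.037 over the upper stratum. COX8A was at 0.39 ± 0.26, NDUFA6 at 0.36 ± 0.27 and ATP5MC2 at 0.40 ± 0.30. ATP5MC2, a rotor-ring gene, measured 53.1 CPM with Nutlin3a and peptide, against 39.0 and 41.4 CPM with Nutlin3a alone and 52.6 and 49.5 CPM with DMSO. COX7B (−1.56 ± 0.81), NDUFB3 (−0.97 ± 0.72) and NDUFA3 (−0.53 ± 0.30) were on the lower side. The 2 comparisons with peptide and the difference between responses share libraries, so their values are not independent.

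Another 72 genes act with these subunits: the subunits of complex II, cytochromes c and c1, assembly factors, factors for expression of mitochondrial DNA, regulators, and subunits outside the rule. Their median level was 73.2 CPM, and 70 of the 72 lay above the median window. Over the DMSO input 21 were higher (12.1% of all windows and 20.1% of the upper stratum) and 1 lower (4.71% and 1.82%), the lower one being the coactivator PPARGC1A (−2.71). In the 4 comparisons of ChIP groups tested by edgeR, 0 of the 72 were called in either direction. The highest of the named ones was SCO2, a copper chaperone of complex IV and a known p53 target, at 303 and 322 CPM with DMSO, 193 and 302 CPM with Nutlin3a, and 302 and 283 CPM in the DMSO and Nutlin3a libraries with peptide. Only the first Nutlin3a library stood apart, and the log2 fold without peptide was −0.33 ± 0.25. CYC1, which encodes cytochrome c1 of complex III, showed the same layout at 235 and 252 CPM with DMSO and 145 and 252 CPM with Nutlin3a (−0.29 ± 0.26). CYCS, which encodes cytochrome c, was at −0.22 ± 0.22.

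Among the complex II genes SDHA was at 0.05 ± 0.22, SDHD at −0.15 ± 0.24, SDHC at −0.25 ± 0.24 and SDHB at −0.31 ± 0.33, and SDHB had the lowest level, 29.7 CPM. The regulators NRF1 (103 CPM, −0.33 ± 0.26) and GABPA (87.8 CPM, −0.04 ± 0.21) and the mitochondrial transcription factor TFAM (78.8 CPM, −0.10 ± 0.23) did not pass either, and ATP5IF1, the inhibitor of ATP synthase, was at 0.12 ± 0.26. The 72 genes had a median log2 fold of −0.16 for Nutlin3a without peptide under TMM scaling and a difference with peptide of 0.24, beside −0.13 and 0.18 for the 81 subunits.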

How the data were processed

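The authors deposited raw counts of reads for 1 window of 1000 bp per gene, placed at a transcription start site, in 6 ChIP-seq and 8 input libraries of HCT116 cells, on genome build hg38 per the submitters' processing notes. Aligner, counter and filters on reads: not given in the sources used here. A second set of deposited columns, per the file headers, holds a scaled signal for the ChIP libraries, which equalled the counts times 1 constant per library, 1.82 for Nutlin3a replicate 1 and 0.595 to 0.748 for the others. The sources used here do not give its derivation, and it entered only as an alternative scaling. Counts carry no stated strand.

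Groups followed the sample titles and treatment labels. Counts were fitted with edgeR 4.0.16 in R 4.3.3 (TMM scaling, filterByExpr with a minimum count of 10, quasi-likelihood test, Benjamini-Hochberg adjustment over all windows tested, threshold 0.05), as 4 group means to the 6 ChIP libraries and, for ChIP over input, as group means to all 14. The ChIP fit had 2 residual degrees of freedom, 14.7 prior ones and a biological coefficient of variation (the spread between libraries) of 26.0%, and the 14-library fit 6 and 23.7. Errors of log2 folds are standard errors of the fit. Log2 ratios of single libraries used a prior count of 2. The test was tried on simulated counts, with changes set at windows above the median level. For Nutlin3a without peptide it recovered 0% of changes of 1.5-fold, 29.9% of 2-fold and 89.4% of 4-fold. It also called 11 windows that had not been changed. For the difference of responses it recovered 1.49%, 4.48% and 47.0% at these folds. DESeq2 1.42.0 served as an alternative, beside other scalings, filters, the replicate number as a block and the removal of single libraries. Promoter sequences came from RefSeq (GRCh38.p14), and RefSeq names linked renamed genes.

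The genes, the gene lists and the tests were chosen with earlier results of these data known. Named genes were core subunits and isoform pairs named whatever their values, the 3 highest and 3 lowest by level, and in each comparison the members past the threshold or, with none, the 3 of lowest p per direction. NDUFA5, NDUFA9, NDUFS3, NDUFS4, NDUFS6, NDUFS8, NDUFV2, NDUFV3, NDUFB2, UQCRC2, UQCRQ, UQCR11, ATP5F1E, ATP5ME and ATP5MGL were named beyond this rule after their values were seen, and so was the stratum of windows above the median level. Among the genes named whatever their values, 1 is not reported here singly and is left out of the plot of levels, and it stays in all counts and medians.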

Additional observations from a re-analysis of the deposited data

Results flagged for a closer look

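The median log2 ratio of Nutlin3a to DMSO with peptide had the opposite sign to that in both replicates without it in 3 sets of genes, under TMM scaling. Over all 81 respiratory chain genes it was 0.058 with peptide, against −0.18 and −0.07 in replicates 1 and 2 without peptide. In complex I it was 0.11, against −0.12 and −0.07, and in complex III 0.16, against −0.22 and −0.03. The pattern was not particular to these sets: the windows above the median level gave 0.014 with peptide against −0.20 and −0.05, and the 72 related genes 0.054 against −0.22 and −0.09. Each value comes from 1 library a group, and the difference between these medians was not tested. For single genes the difference of the responses was tested and 0 of 81 passed.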

How the results depend on the processing

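No call in the ChIP comparisons depended on a setting: 0 of 81 members were called in either direction for Nutlin3a against DMSO, for the difference of responses and for the peptide under either treatment, with every alternative that was run. Medians moved more. With the authors' constants the members' median was 0.38 for Nutlin3a without peptide (0.40, 0.34, 0.53 and 0.25 in complexes I, III, IV and V), 0.46 with peptide, 0.071 for the difference of responses, −0.37 for the peptide with DMSO and −0.31 for the peptide with Nutlin3a, and the median of all windows moved with it (0.04 to 0.53 for Nutlin3a without peptide). With only windows averaging 50 counts or more these were 0.0015 (0.030, 0.0019 and −0.098 in complexes I, III and V), 0.040 for the difference and −0.062 for the peptide with Nutlin3a. With total counts the Nutlin3a median was 0.10 in complex IV and −0.17 in complex V, and the difference was 0.10. Leaving out 1 library at a time gave −0.15 to −0.053 for Nutlin3a without peptide, −0.17 to 0.014 in complex I, −0.11 to −0.013 in complex III, −0.090 to 0.0024 in complex IV, 0.057 to 0.23 for the difference and −0.046 to 0.038 for the peptide with Nutlin3a. Without DMSO replicate 1 the members' median was −0.053 for Nutlin3a and 0.057 for the difference. ChIP over input was the least stable: members higher were 7 by total counts, 3 in windows averaging 50 counts or more (40 members left), 3 in windows that overlap no other and 5 to 18 without single libraries, members lower were 1 with no filter, 0 in windows averaging 50 counts or more and 0 to 2 without single libraries, and the median was 0.32 by total counts and −0.075 in windows averaging 50 counts or more. Over all windows the median of ChIP over input moved too, from 0.06 in the main fit to −0.29 by total counts. The members' distance from it was 0.606 by total counts, beside 0.607 in the main fit. In windows averaging 50 counts or more the median of all windows was 0.0028 and the members' distance −0.078. All windows called higher went from 2606 in the main fit to 1451 by total counts. For these settings the cause was not tested. The authors' constants could not be applied to ChIP over input, since none came with the inputs.

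With the replicate number as a block, the members called stayed at 0 in every ChIP comparison and were 14 higher and 2 lower over input, the Nutlin3a median was −0.13, and 39 windows in all were higher for Nutlin3a against 2 without the block. The labels do not say what a number marks, and with 2 pairs the deviations of same-numbered libraries had a Pearson correlation of 0.45 across windows, which are not independent. Among named genes 19 calls of ChIP over input were lost and 2 gained over all settings, and 180 values without a call changed sign. Input depth limits the comparison with input, and 2 libraries a group, or 1 with peptide, limit the others.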
